A study of Mus musculus with 230 samples.

Results

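Reporter-sorted P2 cells, labelled glutamatergic progenitors, of the dorsal subventricular zone were divided by Egr1, an immediate early gene that encodes a zinc finger transcription factor. A P2 cell was placed in the group with Egr1 when its Egr1 level was at least 1 RPKM (reads per kilobase of gene and per M reads, M for mega), which held for 64 cells, and in the group without Egr1 below that level, which held for the other 44. The groups were chosen by the measured Egr1 level itself, so that level describes them and is not a result. The question put to the data was whether other early response genes, stress genes or markers of lineage stage went along with it.

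Each library came from a single sorted cell of a C57BL/6 mouse of genotype Neurog2CreERT x Ai14+/+, in which a recombinase under Neurog2 regulatory sequences switches on the red reporter tdTomato after tamoxifen. All P2 cells were taken 12 h after tamoxifen, at postnatal day 2, sorted for the reporter and captured on a microfluidic chip. The series holds 230 cells, 121 from embryonic day 15 (E15) and 109 from P2, and 1 P2 cell, listed at 0 throughout, was not used. The E15 cells were likewise positive for tdTomato and taken 12 h after tamoxifen. The P2 cell titles carry the words plaque1 (55 cells used, 32 with and 23 without Egr1) and plaque2 (53 cells, 32 with and 21 without), read here as 2 plates. Neurog2 marks cells in transit from radial glia to neurons, so a reporter driven by it labels progenitors together with the young neurons they become. The labels name no animal, so all P2 cells count as 1 sample, cells are not replicates, and the differences below carry neither a test nor a standard error. Where plate values stand beside a difference, they are its spread. A difference given without them can be uneven or opposite in sign between the plates.

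Immediate early genes are transcribed within minutes of a stimulus without new protein synthesis. Growth factors acting through receptor tyrosine kinases, RAS and the kinase ERK induce Egr1, Fos and Jun through serum response factor and related factors, and neuronal activity, cell stress and the handling of tissue are known to induce the same class. Egr1 binds GC-rich sites, Fos and Jun pair to form AP-1, and Spry2 is a Sprouty protein that ERK signalling induces and that then restrains it. In the cortex, radial glia (Pax6, Sox2) give rise to intermediate progenitors (Eomes, Neurog2), which divide and become glutamatergic neurons that express Neurod1 and then Neurod6.

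Egr1 was a graded transcript in these cells. In the 64 cells with Egr1 the level ran from 1.09 RPKM to 668 RPKM with a median of 41.4 RPKM, and 47 of them reached 10 RPKM and 18 reached 100 RPKM. Of the 44 cells without Egr1, 30 were listed at 0 and 14 lay between 0 and 0.939 RPKM. The cells just inside the limit had 1.09, 1.26 and 1.60 RPKM (31, 26 and 49 reads recovered from the RPKM steps), and those just outside had 0.939, 0.891 and 0.861 RPKM (25, 29 and 23 reads). Cells on both sides of the limit therefore held similar read numbers, and the limit is a line through a range. The share of P2 cells with Egr1 was 59.3%, with an exact Clopper-Pearson 95% interval of 49.4% to 68.6% that covers counting error only.

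**Figure D1:**
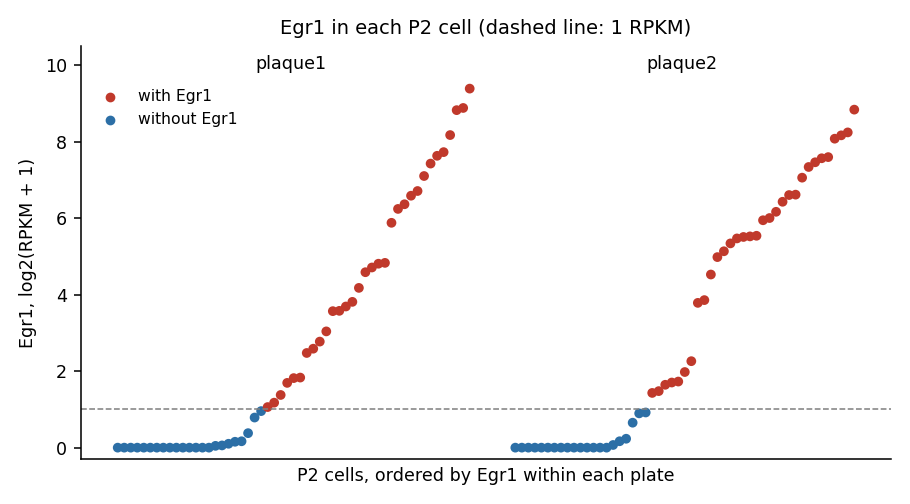
Egr1 level of each P2 cell as log2(RPKM + 1), cells ordered by Egr1 within plaque1 and plaque2, red for cells with and blue for cells without Egr1, with the limit of 1 RPKM as a dashed line. The levels rise from 0 to 668 RPKM without a gap at the limit in either plate.

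Median depth over all P2 cells was close between the groups, and reads in genes lay further apart in plaque2. Cells with Egr1 had a median of 2100.5 detected genes (detected meaning at least 1 RPKM, at most 3339) and 2.83 M reads in genes. Cells without Egr1 had a median of 2003.5 detected genes (556 to 2941) and 2.75 M reads. The mitochondrially encoded share of RPKM had a median of 7.80% with and 7.17% without Egr1. The plates had the same direction, with 1919 against 1909 detected genes in plaque1 and 2224 against 2108 in plaque2. Median reads in genes were 2.81 M with and 2.71 M without Egr1 in plaque1, and 3.19 M and 2.79 M in plaque2. The highest number of detected genes was 3081 with and 2941 without Egr1 in plaque1, and 3339 and 2409 in plaque2. In detected genes 1 cell with and 2 cells without Egr1 were under 50% of the median, and the lowest of them, a plaque2 cell with Egr1, had 0.114 M reads in genes, of which 2 were Egr1 reads. The markers did not all match the label of progenitors: of all P2 cells 93.5% had Dcx, a gene of young neurons, and 87 cells had the neuronal gene Neurod6, while 78 had Eomes, 48 had Pax6 and 12 had the proliferation gene Mki67. Gad2, a marker of GABAergic cells, was in 44 cells. Markers of ependymal, microglial and vascular cells were at or near 0 in both groups: their summed levels reached at most 1.96, 4.71 and 0.740 RPKM in any cell with Egr1, and 0, 0 and 0.0867 RPKM in any cell without. The oligodendrocyte lineage list reached 148 RPKM with (members found in 8 cells) and 165 RPKM without Egr1 (3 cells), the red blood cell list 44.4 and 1.45 RPKM (1 cell each), and the astrocyte list 276 and 318 RPKM (28 and 14 cells), all with medians under 1 RPKM. Their part in the differences was not tested. All 10 cells with Xist were in plaque2, and 8 of them had Egr1.

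Few genes separated the groups in both plates. The level of a gene is the mean over cells of log2(RPKM + 1), a scale that understates the change of low genes, and the difference is cells with minus cells without Egr1. Of 5756 genes detected in at least 10% of P2 cells, 21 (0.365%) were higher by at least 1 in all cells and in each plate, and 15 (0.261%) were lower by at least 1, a rule of size and not a test. In plaque1 alone 225 genes were higher and 133 lower by at least 1, and in plaque2 alone 263 and 170. The median difference over all genes was 0.07 (0.06 in plaque1 and 0.09 in plaque2), and the middle 90% of genes lay between -0.54 and 0.69. Across the 5756 genes, which are not independent, the differences of the plates had a Pearson r of 0.02. The same limit on Eomes, Pax6 or Gad2 in these cells gave 0.03, 0.14 and 0.04. Of all genes, 31.3% were higher in both plates at any size and 19.2% were lower in both.

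**Figure D2:**
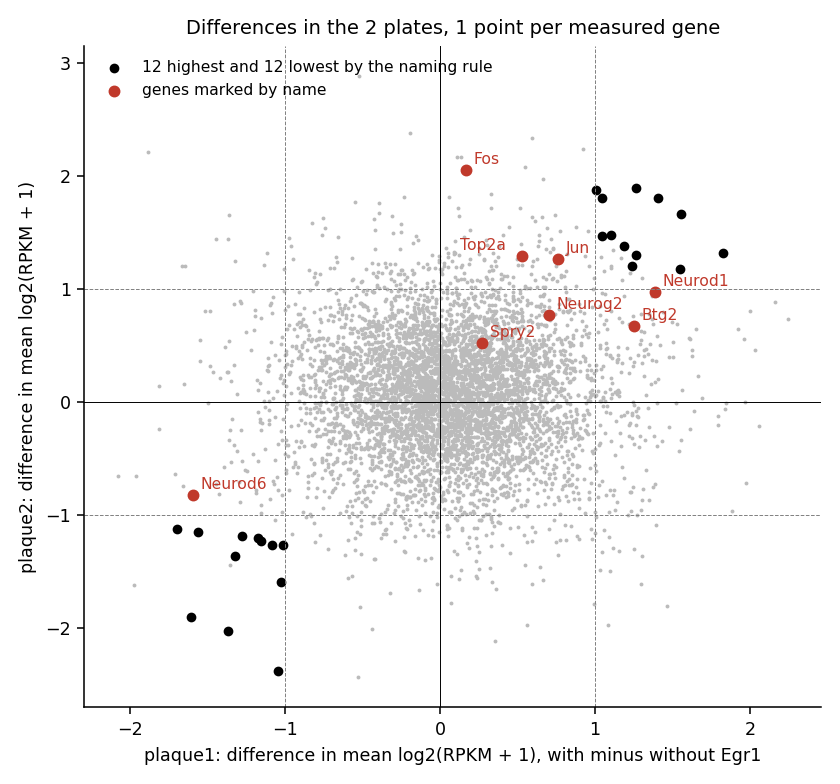
Difference in mean log2(RPKM + 1), cells with minus cells without Egr1, in plaque1 (x axis) and plaque2 (y axis), 1 grey point for each of 5756 genes, black for the 12 highest and 12 lowest named genes and red for genes marked by name. The cloud has no slope (r of 0.02), Jun and Neurog2 are above 0 in both plates, Fos is high in plaque2, and Neurod6 is below 0 in both.

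Among genes past the size rule and found in at least 20% of cells, the 12 with the highest differences held no gene of the immediate early lists. Those lists have 18 of the 5756 measured genes, so their absence from 12 genes says little. In order the 12 were Ier3ip1 (1.60), Calu (1.59), Sdha (1.58), Hmgb3 (1.56), Acd (1.43), Rrm1 (1.42), Gna11 (1.38), Hdac2 (1.30), Wdr47 (1.27), sept-11 (1.26, a name altered to a date-like form in the table), Fis1 (1.25) and Rab12 (1.23). Sdha encodes the flavoprotein subunit of succinate dehydrogenase, and its level in cells with Egr1 ran from 0 to 274 RPKM with a median of 0.121 RPKM, against 0 to 135 RPKM with a median of 0 without. Sdha was detected in 27 of 64 cells with Egr1 (13 of 32 in plaque1, 14 of 32 in plaque2) and in 6 of 44 without. Rrm1, the large subunit of ribonucleotide reductase that makes deoxynucleotides for S phase, was detected in 26 cells with Egr1 (40.6%) and in 7 without (15.9%). Its highest values, 339 and 262 RPKM, were of the same order in both groups.

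Hdac2, a class I histone deacetylase, was detected in 29 cells with Egr1 (45.3%, highest 147 RPKM) and in 9 without (20.5%, highest 20.0 RPKM). The Hdac2 difference was 1.26 in plaque1 and 1.30 in plaque2, and it was above 0 under every alternative tried. Hdac2 was picked for its difference in these same cells, which the alternatives reuse, so the kept sign is no independent support. Hmgb3, a high mobility group chromatin protein, had a median of 28.2 RPKM with and 4.05 RPKM without Egr1, with the highest single value, 228 RPKM, in a cell without it. Rab12, a small GTPase of membrane traffic, was in 40 cells with Egr1 (62.5%) and 12 without (27.3%). The groups overlapped in all of these genes, and in each of them a larger share of the cells with Egr1 had the transcript.

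On the same terms, the 12 genes with the lowest differences were Tm2d2 (-1.75), Lrrtm4 (-1.68), mt-Tl1 (-1.67), Vta1 (-1.43), Bex1 (-1.35), Rimklb (-1.31), Rnf2 (-1.30), Abracl (-1.22), Srsf7 (-1.20), Naa35 (-1.19), Ostc (-1.18) and Riok1 (-1.14). Lrrtm4, a leucine-rich repeat transmembrane protein of synapses, had a median of 0 and a highest value of 360 RPKM in cells with Egr1, against 32.8 and 1109 RPKM in cells without. Lrrtm4 was detected in 39.1% of cells with and 59.1% of cells without Egr1. Srsf7, a serine and arginine rich splicing factor, was detected in 82.8% and 84.1% of cells, and its median was 11.3 RPKM with and 80.2 RPKM without. The shares of cells with Srsf7 were thus close, and the medians were not. Exons of 10 of these 24 genes overlap another gene (Ier3ip1 with Hdhd2, Calu with Opn1sw, Vta1 with Gm16234, for example), and without strand their reads cannot be told apart. 4 of the 24 lost their sign in the 30 cells without Eomes, where 17 cells with Egr1 met 13 without: Ier3ip1 (-0.48), sept-11 (-0.48), Srsf7 (0.15) and Riok1 (0.08).

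Fos and Jun had the largest differences among the measured immediate early transcription factors. The genes lie on chromosome 12 (Fos, chr12:85473890-85477273, plus strand) and chromosome 4 (Jun, chr4:95049034-95052222, minus strand) of GRCm38. The 120 bases before each annotated start (RefSeq, GRCm38.p6; Fos chr12:85473770-85473889, Jun chr4:95052223-95052342) are shown for that reason. Capitals mark matches, on either strand, to TGACGT, the core of the cyclic AMP response element, or to TGACNTCA. The latter is a looser pattern for such an element or a Jun site. Its match in Jun, TGACATCA, does not hold the core TGACGT. Both motifs were chosen after the sequences were read, TGACNTCA to fit that of Jun.

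Fos: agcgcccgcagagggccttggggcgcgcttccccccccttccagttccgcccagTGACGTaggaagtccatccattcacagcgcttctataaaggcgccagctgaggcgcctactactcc

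Jun: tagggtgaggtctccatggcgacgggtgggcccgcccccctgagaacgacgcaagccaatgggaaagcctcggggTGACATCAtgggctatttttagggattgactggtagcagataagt

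The match in Fos starts 66 bases before the start of the gene, and that in Jun 45 bases before it. In a window from 250 bases before to 50 bases after the start, available for 4323 of the 5756 genes, TGACGT was in 16.0% of promoters and TGACNTCA in 8.91%. TGACNTCA was in 7 of 17 immediate early promoters, that of Jun included, and in 1 of 15 of the genes higher by at least 1. The AP-1 site TGANTCA was in 0 of 17 immediate early promoters (4.81% of all), and the CArG box, the site of serum response factor, in 1 of 17 (1.53% of all). GCGNGGGCG, a binding sequence of Egr1, was in 13.7% of all promoters, in 3 of 15 of the genes higher by at least 1, in 1 of 9 of the genes lower and in 2 of 17 immediate early genes. Sites more than 250 bases before the start were not counted, so a low count does not mean that a gene lacks the site. These are matches of letters and say nothing of binding.

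Fos was detected in 26 of 64 cells with Egr1 (40.6%) and in 9 of 44 without (20.5%). Its level in cells with Egr1 ran from 0 to 203 RPKM with a median of 0.0582 RPKM, against 0 to 114.3 RPKM with a median of 0 without. The mean of log2(RPKM + 1) was 1.93 ± 2.67 (SD over 64 cells) with and 0.82 ± 1.78 (SD over 44 cells) without Egr1, a difference of 1.11. The plates did not give the same size: the Fos difference was 0.16 in plaque1, where 7 of 32 and 4 of 23 cells had Fos, and 2.05 in plaque2, where 19 of 32 and 5 of 21 had it. The Fos difference lay mainly in plaque2 and missed the size rule.

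Jun was above 0 in both plates, by more in plaque2. It was detected in 21 cells with Egr1 (32.8%) and in 4 without (9.09%), with highest values of 78.2 and 43.2 RPKM and a median of 0 in both groups. The Jun difference was 1.01 in all cells, 0.76 in plaque1 and 1.27 in plaque2, so plaque1 alone kept it from the size rule. Seen from the other side, 21 of 25 cells with Jun had Egr1 (84.0%, 95% interval 63.9% to 95.5%), against 43 of 83 cells without Jun (51.8%, 40.6% to 62.9%). Exons of Jun overlap those of the antisense gene Junos. In the 64 cells without Gad1 and Gad2, 35 of them with Egr1, the Jun difference was 0.28.

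Cells with both Fos and Jun, counted after the single values had been seen, all had Egr1: 12 of 12 (95% interval 73.5% to 100%), 4 in plaque1 and 8 in plaque2. Their Egr1 levels had a median of 103.4 RPKM and ran from 2.12 to 456 RPKM. Of 23 cells with Fos only, 14 had Egr1, of 13 with Jun only, 9 had it, and of 60 with neither, 29 had it (48.3%, 35.2% to 61.6%). Cells with both were also deeper, with a median of 2439 detected genes against 1974.5 in cells with neither, and the part of depth in this difference was not tested.

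The rest of the class was sparse. Of 25 immediate early transcription factors 6 were measured, with a median difference of 0.28, and none passed the size rule. Besides Fos and Jun they were Ier2 (0.37), Srf (0.20), Klf6 (0.04) and Jund (-0.09). The plates had opposite signs for Ier2 (0.85 in plaque1 and -0.12 in plaque2), Srf (0.88 and -0.57) and Klf6 (-0.35 and 0.43). The other 19 were found in at most 10 cells each and 8 of them in none at 1 RPKM, among them Egr3, Egr4, Fosl1 and Atf3. Egr2, the nearest relative of Egr1 on this list, was in 5 cells, all with Egr1. Of all genes 0.365% passed the rule as higher and 0.261% as lower. Of 28 other early response genes 12 were measured, with a median of 0.34, and none passed the rule. They included Btg2 (0.97), an antiproliferative gene that is also on the intermediate progenitor list, Pim1 (0.67), Mcl1 (0.65) and Dusp1 (0.59), a phosphatase of MAP kinases that differed by 1.10 in plaque1 and 0.04 in plaque2. Btg2 was in 24 cells with Egr1 (highest 510 RPKM) and 12 without (highest 242 RPKM). Of the 18 measured early response genes of both lists, 10 were higher and 1 lower in both plates, beside 31.3% and 19.2% of all genes.

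**Figure D3:**
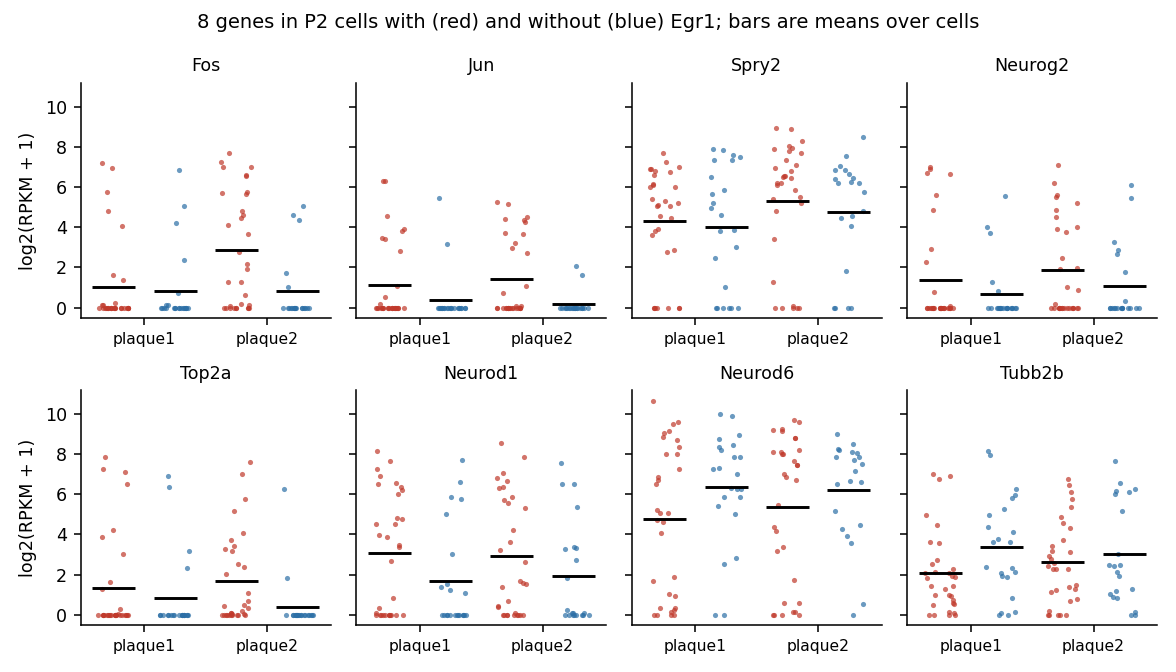
Level of 8 genes as log2(RPKM + 1) in each P2 cell of plaque1 and plaque2, red with and blue without Egr1, with the mean over cells as a bar; points are spread sideways for sight. Every gene has cells at or near 0 in all 4 groups, Fos is raised with Egr1 in plaque2 (2.05) more than in plaque1 (0.16), and the bar of Neurod6 is lower with Egr1 in both plates.

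Genes of receptor tyrosine kinase signalling lay on both sides of 0. Spry2 (chr14:105891947-105896819, minus strand) was detected in 51 cells with Egr1 (79.7%) and 34 without (77.3%). Its level ran from 0 to 483 RPKM with a median of 50.6 RPKM with Egr1, and from 0 to 361 RPKM with a median of 33.0 RPKM without. The Spry2 difference was 0.42 (0.27 in plaque1 and 0.53 in plaque2), and it turned below 0 in cells without Eomes (-0.46), in cells without Mki67 and Top2a (-0.19) and in cells with Neurod6 (-0.08). Egr1 was present in 51 of 85 cells with Spry2 (60.0%) and 13 of 23 without (56.5%), shares whose intervals overlap almost wholly. With a limit of 5 RPKM for both genes these shares were 50.6% and 33.3%, and above 0 RPKM they were 74.4% and 63.6%.

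The 6 measured members of the feedback and ERK target list had a median of 0.39. None passed the size rule, which 0.365% of all genes passed as higher and 0.261% as lower. Spred1, a RAS inhibitor related to the Sprouty proteins, was in 13 cells with Egr1 and 1 without (difference 0.69, 0.73 in plaque1 and 0.62 in plaque2). Rasa1 (0.80) and Nf1 (-0.70), both GTPase activators that switch RAS off, lay on opposite sides. Among ligands, Nrg1, the neuregulin ligand of ErbB receptors, was lower with Egr1 by 1.09 (-1.16 in plaque1, -0.98 in plaque2), in 21.9% against 38.6% of cells. Of 17 measured RAS and ERK cascade genes, Nras was furthest above (1.04, 1.30 in plaque1 and 0.78 in plaque2), in 63 of 64 and 39 of 44 cells. Nab1, a corepressor that binds Egr proteins, had a difference of -0.36, and its relative Nab2 was found in 1 cell.

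Stress genes centred on the value of all genes. Over the 58 measured genes of the heat shock, endoplasmic reticulum, oxidative, p53 and hypoxia lists the median difference was 0.06, beside 0.07 over all genes. None of the 58 passed the size rule, which 0.365% of all genes passed as higher and 0.261% as lower. A count of none in 58 is near those shares. Of these 58, 17 were higher and 10 lower in both plates, shares near the 31.3% and 19.2% of all genes. The 16 measured heat shock and chaperone genes had a median of 0.03, between -0.42 and 0.57, with Hsp90ab1 (0.57), Hspa9 (0.55) and Dnaja1 (0.52) furthest above. The inducible heat shock genes Hspa1a, Hspa1b, Hspb1, Bag3 and Cryab were listed at 0 in every P2 cell, but a 0 here can come from counting: 5 of 13 mitochondrially encoded genes, which every cell uses, were also listed at 0 in every P2 cell (mt-Nd4l, mt-Co2, mt-Co3, mt-Atp6 and mt-Atp8), and Hspa1a and Hspa1b are near-identical copies. Dnajb1, another inducible chaperone, was in 6 cells with and 4 without Egr1.

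The 15 genes of the endoplasmic reticulum and integrated stress response had a median of -0.05. Dnajb9 (0.60) was furthest above and Edem1 (-0.46) furthest below, while Atf4 (-0.36) and Ddit3 (-0.09), the transcription factors of the integrated stress response, were below. The 12 oxidative stress genes had a median of -0.10, and thioredoxin Txn1 (0.95) and the glutathione peroxidase Gpx4 (-0.85) lay at its ends. The 9 p53 and apoptosis genes had a median of 0.38, but 0.18 in plaque1 and 0.13 in plaque2, and Trp53 itself differed by -0.23 in plaque1 and 1.81 in plaque2. The 6 hypoxia genes lay between 0.08 and 0.40.

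The 8 mitochondrially encoded genes that were not listed at 0 had a median of 0.41 and were not alike. mt-Nd3, a subunit of complex I, had a median of 26.3 RPKM with and 5.51 RPKM without Egr1 (difference 1.52, 2.24 in plaque1 and 0.74 in plaque2). mt-Nd1, a subunit of the same complex, differed by -0.48. The leucine transfer RNA gene mt-Tl1 was lower with Egr1, as given above.

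**Figure D4:**
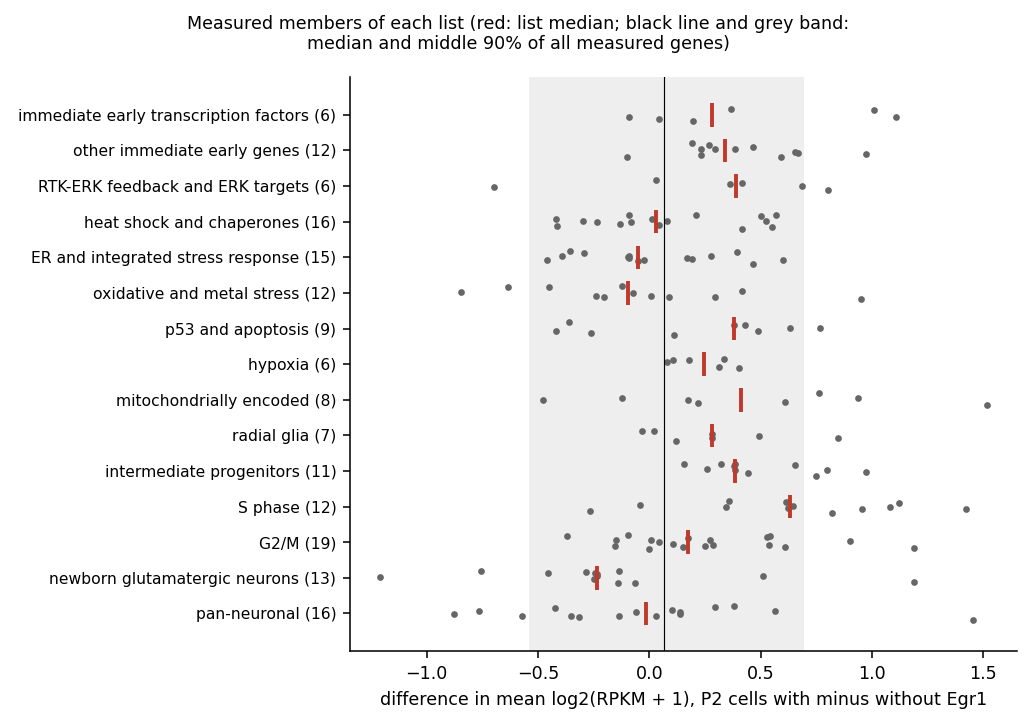
Difference in mean log2(RPKM + 1), cells with minus cells without Egr1, for the measured members of 15 lists (number of members in brackets), with each list's median in red, the median of all genes as a black line and their middle 90% as a grey band. The heat shock, endoplasmic reticulum and oxidative lists centre near 0, S phase lies furthest to the right (median 0.63), and newborn glutamatergic neurons lie to the left (-0.24).

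No radial glia or intermediate progenitor gene passed the size rule, which 0.365% of all genes passed as higher and 0.261% as lower. The joint median of the 18 measured, 0.38, was 0.21 in cells matched on detected genes. The median of all genes in those matched cells is not given here. The 7 measured radial glia genes had a median of 0.28, led by Pax6 (0.85, 0.30 in plaque1 and 1.39 in plaque2). Fabp7 (0.02) and Ptprz1 (-0.03) were near 0 in all cells but had opposite signs in the plates. They differed by 0.12 and 0.20 in plaque1 and by -0.11 and -0.31 in plaque2. The 11 measured intermediate progenitor genes had a median of 0.39, all were above 0, and 7 were higher and none lower in both plates, beside 31.3% and 19.2% of all genes. Btg2 and Gadd45g are also on the early response list. The highest were Btg2 (0.97), the Notch antagonist Hes6 (0.80), Neurog2 (0.75, 0.70 in plaque1 and 0.78 in plaque2) and the chromatin remodeller Chd7 (0.65). Neurog2 was in 22 cells with Egr1 (34.4%) and 10 without (22.7%). Eomes, the defining factor of intermediate progenitors, differed by 0.44 (0.73 in plaque1 and 0.13 in plaque2). The share of cells with Egr1 was 60.3% with Eomes (47 of 78) and 56.7% without (17 of 30).

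Of the S phase genes 1 of 12 measured passed the size rule, and their median was higher in plaque2. They had a median of 0.63 (0.20 in plaque1, 0.99 in plaque2), 8 were higher and none lower in both plates (31.3% and 19.2% of all genes), and the gene past the rule was Rrm1 (1.42; 0.365% of all genes passed). Ccne2 (-0.27) was lowest. Rrm2 (1.12), the small subunit of the same reductase, and Pcna (1.08), the sliding clamp of DNA polymerase, differed by 2.17 and 1.84 in plaque2 and by 0.11 and 0.33 in plaque1. The 19 measured G2/M genes had a median of 0.18, which was -0.19 in plaque1 and 0.77 in plaque2. Of these 19, 6 were higher and 1 lower in both plates, near the 31.3% and below the 19.2% of all genes, and 12 had opposite signs. The chromatin protein Hmgb2 (1.19) and topoisomerase Top2a (0.90) were among the 6. Mki67 differed by -0.15 in plaque1 and 0.72 in plaque2. Top2a was in 22 cells with Egr1 (highest 229 RPKM) and 6 without (highest 122 RPKM). Among cells with Top2a 22 of 28 had Egr1 (78.6%, 95% interval 59.0% to 91.7%), against 42 of 80 without Top2a (52.5%, 41.0% to 63.8%). With a limit of 5 RPKM for both genes these shares were 55.0% and 44.3%, and above 0 RPKM they were 92.3% and 60.9%. Cells with Top2a were deeper, with a median of 2336 detected genes against 1981, and the part of depth in this difference was not tested.

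None of the 13 measured newborn glutamatergic neuron genes passed the size rule (of all genes 0.365% passed as higher and 0.261% as lower). Their median was -0.24, and 8 were lower and 1 higher in both plates, beside 19.2% and 31.3% of all genes. Together with the pan-neuronal genes the median was -0.14, and it turned above 0 with Egr1 above 0 RPKM (0.0518), with Egr1 of at least 5 RPKM (0.0458) and in cells without Eomes (0.35). Neurod6 (chr6:55677822-55681263, minus strand), a proneural family factor of postmitotic glutamatergic neurons, was detected in 47 cells with Egr1 (73.4%) and 40 without (90.9%). Its level ran from 0 to 1601 RPKM with a median of 67.9 RPKM with Egr1, and from 0 to 1040 RPKM with a median of 137 RPKM without. The Neurod6 difference was -1.21 (-1.59 in plaque1, -0.82 in plaque2), the mean of log2(RPKM + 1) being 5.07 ± 3.63 (SD over 64 cells) with and 6.28 ± 2.63 (SD over 44 cells) without Egr1. The difference lay in the number of cells that had Neurod6: within the 87 cells with Neurod6 the difference was -0.06, and on the log2 of the mean RPKM it was 0.08.

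Of the 21 cells without Neurod6, 17 had Egr1 (81.0%, 95% interval 58.1% to 94.6%), against 47 of 87 with Neurod6 (54.0%, 43.0% to 64.8%), and the shares were alike in the plates (81.8% against 52.3% in plaque1, 80.0% against 55.8% in plaque2). With a limit of 5 RPKM for both genes the shares were 69.2% without and 39.0% with Neurod6. Above 0 RPKM they were closer, 81.8% without and 71.1% with Neurod6. In cells without Gad1 and Gad2 the Neurod6 difference was 0.18. Gad2, which encodes a glutamate decarboxylase, was in 29 cells with Egr1 (45.3%) and 15 without (34.1%), with a difference of 0.79 (1.22 in plaque1, 0.39 in plaque2), and its part in the Neurod6 value was not tested. The summed level of the interneuron and neuroblast list had a median of 3.15 RPKM (0 to 218 RPKM) with and 0.0201 RPKM (0 to 173 RPKM) without Egr1.

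Neurod1 (chr2:79452521-79456751, minus strand), which acts at the step from progenitor to neuron, was in 37 cells with Egr1 (57.8%) and 19 without (43.2%). Its level ran from 0 to 381 RPKM with a median of 5.38 RPKM with Egr1, and from 0 to 210 RPKM with a median of 0.0582 RPKM without. The Neurod1 difference was 1.19 (1.39 in plaque1, 0.98 in plaque2). Rnd2, a small GTPase of migrating neurons, was lower with Egr1 (-0.76), and Tbr1, a factor of projection neuron identity, differed by -0.24.

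Pan-neuronal genes had no common direction. The 16 measured members had a median of -0.02, with 3 higher and 4 lower in both plates, beside 31.3% and 19.2% of all genes. The stathmin family member Stmn3 differed by 1.45 (0.59 in plaque1, 2.33 in plaque2), with a median of 35.3 RPKM with and 6.00 RPKM without Egr1. The tubulin Tubb2b (-0.88) and the microtubule proteins Dcx (-0.76) and Mapt (-0.57) were below 0 in both plates. The 10 upper layer genes had a median of -0.10, with Pou3f2 at -0.02 in plaque1 and -1.61 in plaque2.

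**Figure D5:**
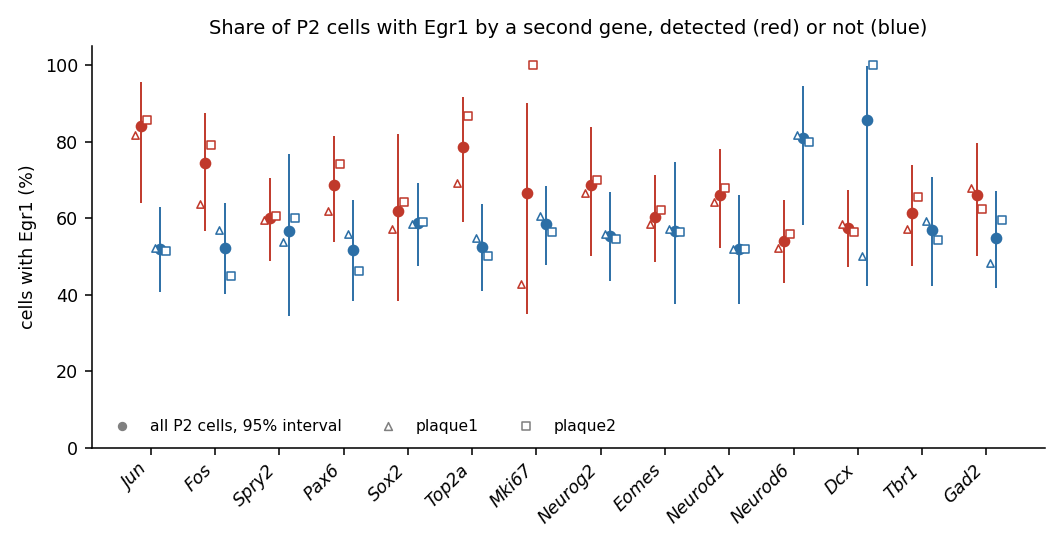
Share of P2 cells with Egr1 (y axis, %) among cells in which a second gene (x axis) was detected at 1 RPKM (red) or not (blue), as a circle with its exact 95% interval for all P2 cells, a triangle for plaque1 and a square for plaque2. At this limit the shares lie apart in both plates for Jun (84.0% against 51.8%), Top2a (78.6% against 52.5%) and, in the opposite direction, Neurod6 (54.0% against 81.0%), and near each other for Spry2, Eomes and Sox2. The sorting depends on the limit. At 5 RPKM for both genes, not drawn, Jun was at 81.0% against 37.9% and Neurod6 at 39.0% against 69.2%. Top2a was then at 55.0% against 44.3%, Sox2 at 68.8% against 42.4%, Spry2 at 50.6% against 33.3% and Eomes at 50.8% against 39.5%.

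A comparison of strong with absent Egr1 gave larger differences for some of these genes. Cells with at least 10 RPKM (47 cells) were set against cells at 0 (30 cells), leaving out those between. Under this limit 56 genes were higher and 22 lower by at least 1 in all cells and in each plate, of which 14 and 9 were also so at the 1 RPKM limit. Neurod1 (2.05, 1.67 in plaque1 and 2.40 in plaque2), Stmn3 (2.21) and Btg2 (1.28) then passed the size rule. Fos differed by 1.89 (0.95 and 2.72), Pax6 by 1.53 (0.48 and 2.49) and Jun by 1.10 (0.87 and 1.33). Neurod6 stayed at -1.31 and Spry2 was at 0.83. The differences of the plates over all genes again had a Pearson r of 0.01.

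The genes most like Egr1 across cells were found by Spearman's rho with the Egr1 level, taking the lower of the values in plaque1 (55 cells) and plaque2 (53 cells). They were Chd7 (0.43 in plaque1 and 0.47 in plaque2), Hdac2 (0.44 and 0.34), Sdha (0.30 and 0.34), Cd63 (0.36 and 0.30), mt-Nd3 (0.42 and 0.30) and Gfpt1 (0.36 and 0.30). Chd7, which encodes an ATP-dependent chromatin remodeller, was in 21 cells with Egr1 (32.8%) and 2 without (4.55%), with 1 of the 2 in each plate. Jun reached 0.28 and 0.41, Fos 0.18 and 0.54, and Spry2 0.07 and 0.16. Cells of a plate share their run, and both rho and detection move with depth, so these values are a description.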

How the data were processed

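RNA of single P2 cells was analysed from the deposited table of RPKM, which the authors made, and 108 of 109 cells were used. Per the submitters' processing notes the reads were handled with bcl2fastq 2.15.0.4, cutadapt 1.9.1, STAR and featureCounts on GRCm38.p4. Neither the gene annotation nor the options of featureCounts, nor the total by which RPKM was scaled, are given in the sources used here. Reads per cell were recovered from the steps of low RPKM values with exon lengths from GENCODE M21 (45745 names matched), where a median of 80.0% of low values lay within 0.02 of a whole read. P2 cells had between 0.114 and 5.58 M reads in genes. In 14 gene names a spreadsheet date stands in place of the symbol, and these were kept so.

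Detection was RPKM of at least 1, and genes detected in at least 10% of P2 cells, both groups together, were measured. A gene can pass this filter through 1 group alone, more easily through the larger group with Egr1. Spred1 (13 cells with and 1 without Egr1), Chd7 (21 and 2) and Jun (21 and 4) passed through the cells with Egr1. The difference is in mean log2(RPKM + 1), pseudocount 1. No count model was used, since cells of 1 sample are not replicates. Named genes were the 12 highest and 12 lowest past the size rule in at least 20% of cells, up to 4 members of each list, Spry2 and Jun, and the 6 most like Egr1 by rho. Other list members, and those listed at 0, were named after their values were seen. The first and last of these skip predicted or clone names, Y-linked genes, Xist and Tsix. The members and the 33 lists were chosen with earlier results of these data known. Plates were read from the cell titles, which is an inference. Shares have exact Clopper-Pearson intervals. No molecular identifiers were used, so reads are not independent molecules. The steps were tested on simulated data. Promoters are RefSeq windows. Tools were Python 3.11.15 with scipy 1.17.1, numpy 2.4.6, matplotlib 3.10.9 and pandas 2.3.3. Alternatives were other Egr1 limits, scales, filters, depth-matched cells and subsets of cells; cells with Neurod6 and cells without Xist were added after the data were seen. Counts past the size rule under an alternative are given as percent of the genes it tests; this form, and keeping the gene filter on RPKM for the other scales, were chosen after the values were seen (the TPM scale had 114 genes higher and 63 lower).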

Additional observations from a re-analysis of the deposited data

Results flagged for a closer look

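Egr1 was also present in embryonic cells, which the comparison of P2 cells did not use. At E15, 10 of 121 cells had Egr1 of at least 1 RPKM (8.26%, 95% interval 4.03% to 14.7%), with a median of 38.5 RPKM and a highest value of 115.4 RPKM. In these 10 cells Fos was higher than in the other E15 cells by 2.56 on the scale of mean log2(RPKM + 1), with 60.0% against 20.7% of cells having it, and Dusp1 was higher by 1.56 (70.0% against 30.6%). Jun differed by 0.77 and Spry2 by 0.36. The 10 cells were deeper, with a median of 3366 detected genes against 2800, and over 5433 genes their median difference was 0.25. The part of depth in the Fos and Dusp1 values was not tested. At E15 66.8% of those genes were above 0, as were 10 of the 12 genes highest with Egr1 at P2 and 10 of the 12 lowest, all but Srsf7 and Riok1. Across the genes, which are not independent, the E15 and P2 differences had a Pearson r of -0.0052. Neurod1 (-0.75), Neurod6 (0.48), Neurog2 (-0.59), Hes6 (-0.20), Chd7 (-0.12) and Top2a (-0.03) had the opposite signs to P2, while Eomes (0.48) and Pax6 (0.50) had the same. The 2 ages are separate tables, and no level is compared between them.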

How the results depend on the processing

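22 alternatives were run. The list medians below are given without the median of all genes under the same alternative. A move of a list therefore cannot be told apart from a move of all genes. Of the 24 highest and lowest genes, 20 kept 1 sign under every alternative. These 24 were picked for a difference past 1 in each plate of these same cells, which the alternatives reuse. Their kept signs therefore follow largely from that choice and are no independent support. The reversals, all in cells without Eomes, were Ier3ip1 (-0.4825), sept-11 (-0.4759), Srsf7 (0.1485) and Riok1 (0.07903). Of the other 93 named genes, 49 kept 1 sign. With Egr1 above 0 RPKM, 4 of 19 genes higher and 6 of 20 lower were among the 21 and 15 found at 1 RPKM.

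The share of genes higher by at least 1, 0.365%, and lower, 0.261%, was 0.678% and 0.139% with Egr1 of at least 5 RPKM, 2.31% and 1.13% with pseudocount 0.1, and 5.32% and 2.78% on the log2 of the mean RPKM. It was 1.98% and 1.10% on the TPM scale (a common total per cell), 0.114% and 0.0815% with no filter, 0.737% and 0.504% over genes in at least 25% of cells, 4.57% and 2.95% without plaque1 and 3.91% and 2.31% without plaque2. In cells with Eomes it was 0.591% and 0.521%, in cells without Eomes 3.02% and 0.990%, and in cells without Gad1 and Gad2 1.16% and 0.521%. The share higher was 0.973% at 10 RPKM against 0. The share lower was 0.643% in cells matched on detected genes, 0.486% in cells matched on reads and 0.3996% without cells with Xist. With no filter the genes were the same 21 and 15, and over genes in at least 25% of cells 19 and 13 of them, so these shares moved with the number of genes tested.

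The median difference of immediate early genes, 0.33, was 0.19 with Egr1 above 0, 0.45 at 5 RPKM, 0.42 at 10 RPKM against 0, 0.44 on the TPM scale, 0.45 and 0.41 in cells with and without Eomes, 0.63 over genes in at least 25% of cells, 0.69 on the log2 of the mean RPKM, 0.15 and 0.43 after matching on detected genes and on reads, 0.17 with no filter and 0.50 with pseudocount 0.1. That of the stress lists, 0.06, was 0.0995 at 10 RPKM against 0, 0.13 at 5 RPKM, -0.0511 and 0.38 in cells with and without Eomes, -0.0605 with Neurod6, 0.12 without Gad1 and Gad2, -0.16 and -0.12 after matching on detected genes and on reads, 0.12 with pseudocount 0.1, 0.0188 without cells above 20% mitochondrially encoded, 0.00975 without cells with Xist and 0.000872 without cells with few detected genes.

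That of radial glia and intermediate progenitor genes, 0.38, was 0.59 at 10 RPKM against 0, 0.65 on the TPM scale, 0.62 on the log2 of the mean RPKM, 0.21 after matching on detected genes, 0.15 with no filter and 0.68 with pseudocount 0.1. That of glutamatergic and pan-neuronal genes, -0.14, was 0.0518 above 0 RPKM, -0.0156 at 10 RPKM against 0, 0.0458 at 5 RPKM, -0.28 and 0.35 with and without Eomes, -0.0597 with Neurod6, -0.18 without Gad1 and Gad2, -0.21 without Mki67 and Top2a, -0.24 over genes in at least 25% of cells, -0.0365 on the log2 of the mean RPKM, -0.37 and -0.31 after matching on detected genes and on reads, -0.18 on the TPM scale, -0.19 on the median ratio scale, -0.0578 with no filter and -0.19 without cells above 20% mitochondrially encoded. The cause of these moves was not tested, apart from the fewer cells or genes that a subset or filter leaves. No paired analysis was possible because no test was made and the replicate numbers only count cells. With many genes found in few of the 64 and 44 cells, a handful of cells moves a value.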

Other observations

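In 4 gene groups outside the question no gene passed the size rule (of all genes 0.365% passed as higher and 0.261% as lower). The 9 measured genes of the late temporal program of the cortex had a median difference of 0.13, with Luzp2 (0.59), Nfia (0.47) and Zbtb20 (0.46) above. Nfia was found in all 64 cells with and all 44 without Egr1. Luzp2 differed by 1.27 in plaque1 and -0.12 in plaque2. The 7 cholesterol synthesis genes had a median of -0.01, and Hmgcs1, which makes the precursor of mevalonate, differed by 1.97 in plaque1 and 0.00 in plaque2. The 5 Notch pathway genes lay between 0.09 and 0.39, 3 of them higher and none lower in both plates, beside 31.3% and 19.2% of all genes. With 5 members these counts say little. The 3 astrocyte genes had a median of 0.12, led by Sparcl1 (0.52), in 13 cells with and 5 without Egr1.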
